A study of Rousettus aegyptiacus with 32 samples.

Results

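The muscle-only open regions are 1064 stretches of the genome of the Egyptian fruit bat, Rousettus aegyptiacus. They were open in pectoralis muscle of 2 animals and had no listed peak in any of 9 other tissues. They are a subset of 32426 regions strong in both muscle libraries, of which they make up 3.28%, and of 230769 regions that were strong in at least 1 of the 20 libraries of the series. ATAC-seq was done on bulk tissue of 2 adult males, bats 1 and 3, with 1 library per tissue and animal. The assay finds accessible DNA, since its transposase inserts adapters only where nucleosomes leave room. Besides pectoralis muscle, testis, liver, cerebellum, caudate and putamen were sampled, with 4 areas of cortex. Those were 2A (secondary auditory), PreM (premotor), ofM1 (primary motor, orofacial) and wM1 (primary motor, wing). The labels give no treatment or genotype, and no age other than adult. Nuclei came from cryopreserved tissue.

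The regions were chosen by their peaks. In each library's list, rows with the same interval were joined, and the 50000 intervals with the highest -log10 p were called strong. Strong intervals of the 2 muscle libraries were merged, and a merged region was kept if it held a strong interval in both animals and overlapped no listed interval, of whatever strength, in the 18 libraries of the other tissues. A strong peak in both muscle libraries and no listed peak elsewhere therefore define these regions and are not a finding about them. No listed peak does not mean closed, since the lists differ in the weakest peak they hold. Their folds and -log10 p are the peak caller's own values as deposited by the authors, with no scaling between libraries, and they are given as a description with no test. With only 1 muscle library required, the count was 4701 without bat 1 and 3507 without bat 3, and it was 1598 without the 2 testis lists.

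Pectoralis is the main flight muscle of a bat. Skeletal muscle is built of long fibres with many nuclei, whose sarcomeres of actin, myosin, titin and nebulin shorten when calcium leaves the sarcoplasmic reticulum. Genes of the sarcomere and of calcium handling are switched on in muscle by promoters and by more distant enhancers, which bind factors of the MyoD, MEF2 and TEAD families. Bulk muscle also holds blood vessels, fibroblasts, nerve endings and immune cells, so an open region cannot be assigned to fibres from these data, and fewer nuclei of a cell type cannot be told apart from weaker opening in each.

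To name the genes at these regions, the gene table of assembly mRouAeg1.p was placed on the scaffolds of the peak lists. The table gives positions with no scaffold, in runs of rising position, and the lists do not state their build. For 18 runs, 1 scaffold stood out by how many gene ends lay within 500 bases of a strong peak of cerebellum or auditory cortex. Among genes left out of that choice, the share was 17.9 to 30.4% on the chosen scaffold and at most 3.88% on any other, and the best scaffold was the same for 18 of 18 runs. This placed 18922 protein-coding genes and covered the scaffolds of 1063 of the 1064 regions. The table gives no strand, so either end of a gene can be its start, and "gene end" below means either.

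The muscle libraries carried the marks of muscle. Of 65 placed sarcomere genes, 50 had a strong peak within 1 kb of a gene end in muscle of bat 1 and 55 in muscle of bat 3, against 7 to 29 in the 18 other libraries. For excitation-contraction coupling, the link from membrane signal to calcium release, it was 24 and 25 of 27 genes in muscle, against 5 to 15 elsewhere. Myogenic regulators gave 25 and 28 of 33 in muscle, against 7 to 19. Among genes that mark other cells, endothelium gave 1 and 3 of 12 in muscle (1 to 6 elsewhere), blood and immune cells 0 and 4 of 9 (0 to 4 elsewhere), neurons 4 and 7 of 10 (2 to 9 elsewhere), fibroblasts 5 and 2 of 12 (0 to 5 elsewhere), smooth muscle 6 and 6 of 11 (1 to 7 elsewhere), testis 2 and 0 of 9 (7 in both testis libraries) and liver 2 and 2 of 9 (3 to 6 in the liver libraries). Cardiac muscle gave 3 and 4 of 10 in muscle (2 to 4 elsewhere), adipocytes 3 and 2 of 6 (1 to 3 elsewhere) and Schwann cells 2 and 2 of 6 (0 to 4 elsewhere). Over all protein-coding genes the counts were 13016 and 12811 in muscle, against 5742 to 13018 elsewhere. The muscle lists held 187304 and 171581 separate intervals in bats 1 and 3, against 155151 to 238945 in the others.

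The regions were of moderate width and strength. Their merged width had a median of 701.5 bases, with quartiles of 528 and 881 and a range of 171 to 2012. The 31362 strong muscle regions with a peak in another tissue had a median of 912 bases. By number of other tissues, that median was 761 to 860 bases in 1 to 6, 692 in 7, 708.5 in 8 and 1045 in all 9. The rule itself favours narrow regions, because a wider one has more bases that can overlap a listed interval. In the muscle-only regions the intervals of single libraries had medians of 338 bases in bat 1 and 686 in bat 3, so the merged width mostly follows bat 3. In the shared regions these were 543 and 879 bases. Fold enrichment had a median of 3.42 in bat 1 (1.99 to 8.88) and 6.74 in bat 3 (2.10 to 22.1). The shared regions had medians of 4.51 in bat 1 and 7.37 in bat 3. The muscle-only regions were thus weaker than the shared ones in both animals by their medians, with ranges that overlapped widely. Regions with an interval in all 9 other tissues had the highest medians, 5.61 in bat 1 and 8.06 in bat 3, while those in 1 to 7 other tissues had 3.44 to 3.59 in bat 1 and 6.05 to 7.12 in bat 3.

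**Figure D1:**
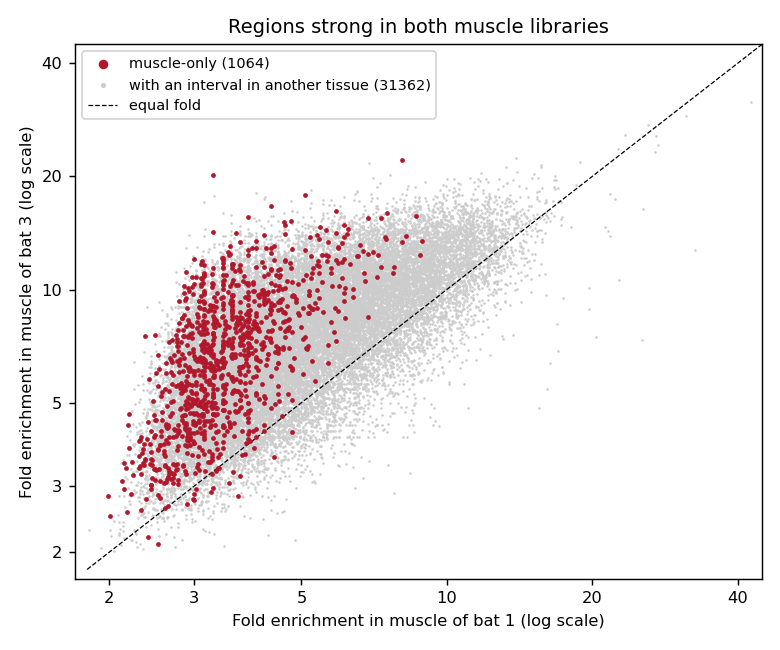
Fold enrichment of each region strong in both muscle libraries, in bat 1 (horizontal, log scale) and bat 3 (vertical, log scale). Red points are the 1064 muscle-only regions, grey points the 31362 regions with an interval in another tissue, and the dashed line marks equal fold. Most red points lie above the line, with 1042 of 1064 higher in bat 3.

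Summits of the 2 animals mostly lay close together. The rule favours this, because each region had to hold strong intervals of both animals in 1 merged stretch. The strongest summits of the 2 animals lay a median of 27 bases apart (quartiles 12 and 59), and in 758 of 1064 regions, or 71.2%, they lay within 50 bases. Among shared regions that share was 71.9%. Fold was higher in bat 3 than in bat 1 in 1042 regions (97.9%), and in 90.1% of the shared ones, so bat 3's list had higher folds in general. Across the 1064 regions, the log2 folds of the animals had a Pearson r of 0.64 and a Spearman rho of 0.61, a description over regions that share their libraries. More than 1 summit was listed in 348 regions in bat 1 and in 733 in bat 3.

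How weak a peak could be and still be listed differed between libraries. Exactly 300000 rows were deposited for 15 of the 20 libraries. The lowest -log10 p listed was 12.3 for caudate of bat 1, the highest such limit, and 2.00 for liver of both animals and testis of bat 3. In bat 1 243 of the 1064 regions had a muscle -log10 p above 12.3, and in bat 3 1003 had. A peak elsewhere that fell under a list's limit would not have been seen. The nearest listed interval of another tissue lay a median of 0.697 kb away, and 667 regions (62.7%) had one within 1 kb. That distance was not measured for other regions or for random positions, so it is not given as a trait of these regions. Just inside the strength threshold lay a region in RBFOX1 (-log10 p of 5.65 in bat 1 and 82.7 in bat 3), one in ESR1 (5.66 and 21.9) and one in OSBP2 (5.68 and 17.8). Just outside lay a region between TMEM182 and POU3F3 (5.64 and 47.3), one in DNAJC5B next to TRIM55 (5.64 and 42.8) and one in ZNRF3 (5.64 and 12.6). Bat 1, the library with the lower -log10 p, set the limit in all 6.

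Muscle-only regions were one end of a range of sharing. Of the 32426 strong muscle regions, 18772 (57.9%) had an interval in all 9 other tissues, 4590 in 8 and 2232 in 7. The numbers between 1 and 6 tissues were lower, at 688 to 1361 each. Of the 1361 regions with an interval in exactly 1 other tissue, 534 were shared with testis, 350 with liver, 288 with cerebellum and 18 to 52 with each cortical or striatal area. By number of intervals testis had the longest lists, at 230146 and 238945 in bats 1 and 3. Liver, at 190164 and 172296, and cerebellum, at 189825 and 187104, had about as many as PreM, at 196988 and 175497. The order differed by bases covered. Testis lists covered 82.5 and 72.2 Mb in bats 1 and 3 and liver lists 44.7 and 44.0 Mb. Cerebellum lists covered 99.95 and 92.92 Mb, and PreM lists 101.6 and 113.6 Mb. The lowest listed -log10 p was 2.80 and 2.00 in testis, 2.00 in both liver lists, 5.28 and 3.53 in cerebellum and 4.78 and 6.26 in PreM, and the part of these limits in the shares was not tested.

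**Figure D2:**
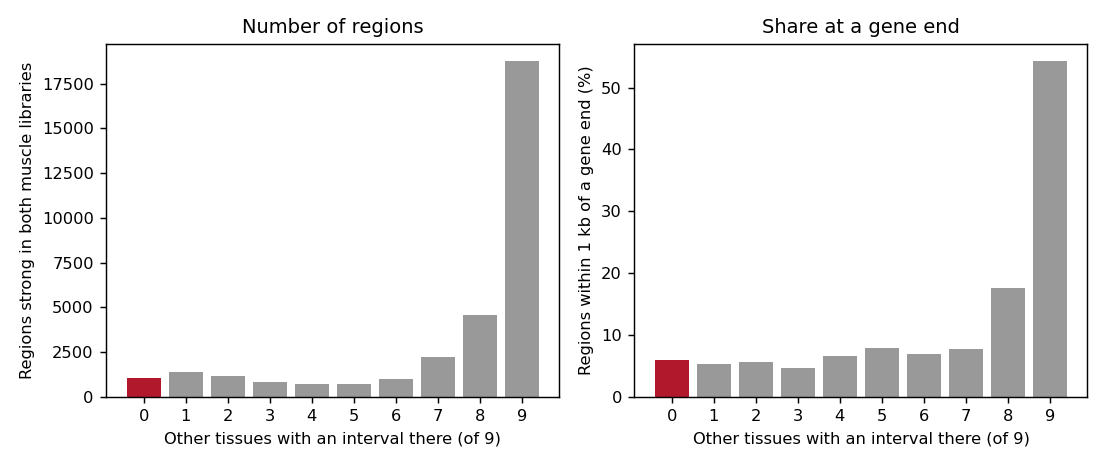
Left, number of regions strong in both muscle libraries by how many of the 9 other tissues had an interval there; right, percentage of those regions within 1 kb of a gene end. The red bar is the 1064 muscle-only regions, 5.93% of which lay at a gene end, against 54.3% of the regions found in all 9 other tissues.

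Muscle-only regions lay away from gene ends. Of the 1063 on placed scaffolds, 63 (5.93%) were within 1 kb of the end of a protein-coding gene, against 36.7% of the shared regions. The exact 95% binomial interval of 4.58 to 7.52% covers counting error only, not the spread between animals. Another 593 muscle-only regions (55.8%) lay inside a gene, over 1 kb from any end, against 34.7% of the shared regions. Between genes lay 407 (38.3%), against 28.6% of the shared regions. The median distance to the nearest gene end was 18.9 kb, against 6.52 kb for shared regions. Over 100 kb from any gene end were 142 regions (13.4%), against 9.54% of the shared ones. Strong muscle regions with an interval in 1 to 7 other tissues had 4.72 to 7.87% at gene ends, those in 8 had 17.6% and those in all 9 had 54.3%. The regions found only in testis and only in liver had 5.71% and 5.22%. Those found only in cerebellum had 1.53%. No test was made of these differences, because regions of 1 library are not replicates.

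Genes of muscle were often near these regions. In all, 770 regions lay in a protein-coding gene or within 10 kb of one, and 157 of them touched 2 or more genes, so a region does not name its gene. They reached 875 of 18922 genes, or 4.62%, which is the background for the lists that follow. Of the 187 genes on 6 lists of muscle genes, 48 had such a region (25.7%). A region strong in both muscle libraries, shared or not, was near 182 of the 187, against 81.5% of all genes. Without muscle of bat 1 the muscle-only count was 109 of 187, against 15.6% of all genes, and without bat 3 it was 72, against 11.8%. The median gene length was 19.0 kb on the lists and 17.2 kb over all genes. In every class of length the lists were above the background: 13 of 58 genes under 10 kb (22.4%, against 2.45% of all genes that short), 15 of 55 genes of 10 to 30 kb (27.3%, against 3.44%), 9 of 48 genes of 30 to 100 kb (18.8%, against 5.37%) and 11 of 26 longer genes (42.3%, against 13.1%). The lists were written from textbook knowledge, with earlier results on these data known, and carry no test.

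**Figure D3:**
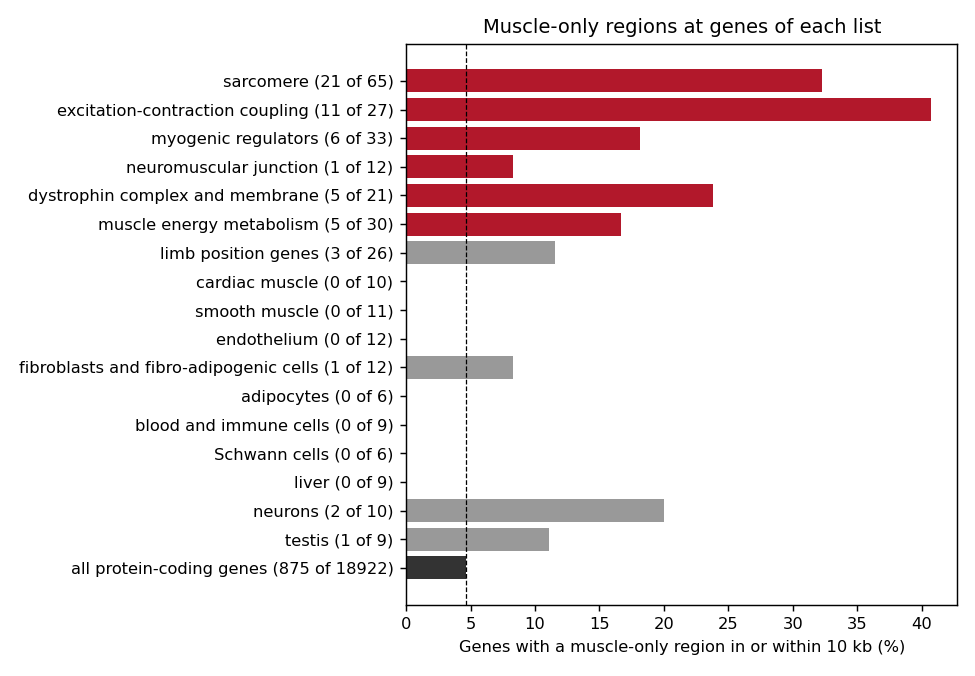
Percentage of the genes of each list that had a muscle-only region in the gene or within 10 kb, with the counts beside each name. Red bars are the 6 muscle lists, grey bars other cell types and tissues, and the black bar and dashed line all protein-coding genes (4.62%); excitation-contraction coupling and sarcomere genes reach 40.7% and 32.3%.

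The same lists were set against regions found only in 1 other tissue. Of the 187 muscle-list genes, 18 had a testis-only region (background 6.11% of genes), 7 a cerebellum-only region (background 4.23%) and 0 a liver-only region (background 0.824%). As a share of the 187, the testis-only count was above its background, and the cerebellum-only and liver-only counts were below theirs. Those sets held 2012, 1957 and 249 regions, so the counts go with different numbers of regions. The difference between tissues was not tested.

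Sarcomere genes had muscle-only regions in 21 of 65 cases (32.3%). The most were at MYOZ1 and SYNPO2L, neighbouring genes for 2 proteins of the Z-disc, which anchors actin filaments. Their windows held the same 3 regions, at 2.60- to 4.56-fold in bat 1 and 3.06- to 4.60-fold in bat 3. These 3 regions also lie inside the longer gene SEC24C, for a vesicle coat protein. MYPN, for myopalladin of the Z-disc and I-band, had 2 regions inside the gene, at 4.43- and 4.78-fold in bat 1 and 7.08- and 6.17-fold in bat 3. PDLIM5, for a Z-disc protein with PDZ and LIM domains, had another 2, of which 1 was lower in bat 3 (3.64-fold) than in bat 1 (3.82-fold).

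The giant and filament proteins had 1 region each. TTN, for titin, the spring of the sarcomere, had a region of 795 bases inside the gene (NW_023416295.1, bases 42398177 to 42398971), at 4.78-fold in bat 1 and 5.09-fold in bat 3. NEB, for nebulin, the ruler of the actin filament, had one 8.21 kb outside the gene, at 3.73-fold in bat 1 and 8.74-fold in bat 3. MYOM1, for myomesin of the M-band, had one across a gene end at 4.72-fold in bat 1 and 8.35-fold in bat 3. At 1805 bases it was among the 3 widest of all. MYL1, for a myosin essential light chain of fast fibres, also had its region at a gene end, at 5.27- and 6.46-fold. ANKRD1, for a titin-binding repeat protein, had one at a gene end at 4.68- and 7.82-fold. FLNC, for the filamin of the Z-disc, had the weakest of these in bat 3, at 2.41-fold in bat 1 and 2.19-fold in bat 3. SMPX, for a small muscle protein encoded on the X chromosome of mammals, reached 3.73-fold in bat 1 and 11.6-fold in bat 3. Other sarcomere genes with a region included MYH1, MYLPF, TNNT3, TNNI2, MYBPC1, MYBPC2, TMOD4, XIRP2 and KLHL40. Reads of MYH1 can be shared with near-identical neighbouring myosin genes, so its region is uncertain in that respect.

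The fast troponin genes stood in 1 of the 2 groups of 4 regions spaced at most 50 kb apart. TNNT3, for fast troponin T, had a region 1.58 kb outside the gene at 2.65-fold in bat 1 and 3.91-fold in bat 3. TNNI2, for fast troponin I, had one 5.83 kb outside at 3.00- and 2.86-fold, and that one was lower in bat 3. The group spanned 128 kb of NW_023416308.1, from base 120644649 to 120772375, and also took in MRPL23, LSP1 and SYT8. Its 4 regions ranged from 2.65- to 4.33-fold in bat 1 and from 2.86- to 5.89-fold in bat 3.

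Excitation-contraction coupling had 11 of 27 genes with a region (40.7%), 1 of them MYOZ1, which stands on this list as well. The list was kept as first written, although MYOZ1 is a Z-disc gene and KCNMA1 a general potassium channel, and both count among the 11. CACNA1S, for the voltage sensor in the tubule membrane, had 2 regions at its gene end and 3.04 kb inside it, at 2.88- and 2.15-fold in bat 1 and 3.28- and 3.45-fold in bat 3. CACNB1, for the beta subunit of the same channel, also had 2, at 2.65- and 2.24-fold in bat 1 and 3.16- and 3.21-fold in bat 3. ATP2A1, for the calcium pump of fast fibres, had 2 inside the gene, at 3.00- and 2.44-fold in bat 1 and 3.26- and 3.70-fold in bat 3. All 6 of these regions were below the median fold of muscle-only regions in both animals. SYPL2, for a membrane protein of the triad junction, had a region at 3.09- and 5.03-fold. SRL, for a calcium-binding protein of the reticulum, had one at 3.54- and 4.44-fold, and SCN4A, for the muscle sodium channel, one at 3.29- and 2.96-fold. CASQ1, TMEM38A, CLCN1 and KCNMA1 had 1 region each as well.

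Myoglobin had the other group of 4. MB, whose protein stores oxygen in muscle, had 4 regions in or within 10 kb of a gene of 9.72 kb, together spanning 20.3 kb of NW_023416295.1, from base 168273207 to 168293469. They stood at 3.27-, 2.32-, 2.87- and 2.99-fold in bat 1 and at 3.65-, 3.98-, 3.87- and 3.90-fold in bat 3, in the order of the scaffold. No other gene had more, and only CTNNA3 had as many, over a gene of 1367 kb. Of 30 placed genes of muscle energy metabolism, 5 had a region (16.7%): MB, ALDOA, GYS1, PHKG1 and UCP3.

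Myogenic regulators had 6 of 33 genes with a region (18.2%), and the MyoD family was not among them. VGLL2, a partner of TEAD factors in muscle, had a region 2.81 kb outside the gene at 5.33-fold in bat 1 and 5.71-fold in bat 3. NFATC1, a factor that responds to calcium through calcineurin, had one at 4.07- and 7.79-fold. PRDM16, a regulator known from brown fat, had one at 3.33- and 6.42-fold. TBX15, a T-box factor of limb and fast muscle in mice, had one at 3.56- and 9.20-fold and stands on the list of limb position genes too. MEF2C and MSTN, the gene for myostatin, which limits muscle growth, had 1 each. MYOD1, MYF5, MYF6 and MYOG had 3, 2, 3 and 1 strong muscle regions, each with an interval in 2 or more other tissues (in 9 for MYF5).

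The dystrophin complex and membrane list had 5 of 21 genes with a region (23.8%). DYSF, for dysferlin of membrane repair, had one at 3.97-fold in bat 1 and 9.88-fold in bat 3. FHL3, for a LIM protein that binds actin, had one just outside the gene at 3.69-fold in bat 1 and 2.82-fold in bat 3. DMD, for dystrophin, and SGCD had 1 each. At the neuromuscular junction 1 of 12 genes had a region (8.33%), CHRND, for a subunit of the acetylcholine receptor. The genes of that list with no muscle-only region were CHRNA1, CHRNB1, CHRNG, CHRNE, MUSK, DOK7, RAPSN, COLQ, LRP4, ACHE and ETV5.

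**Figure D4:**
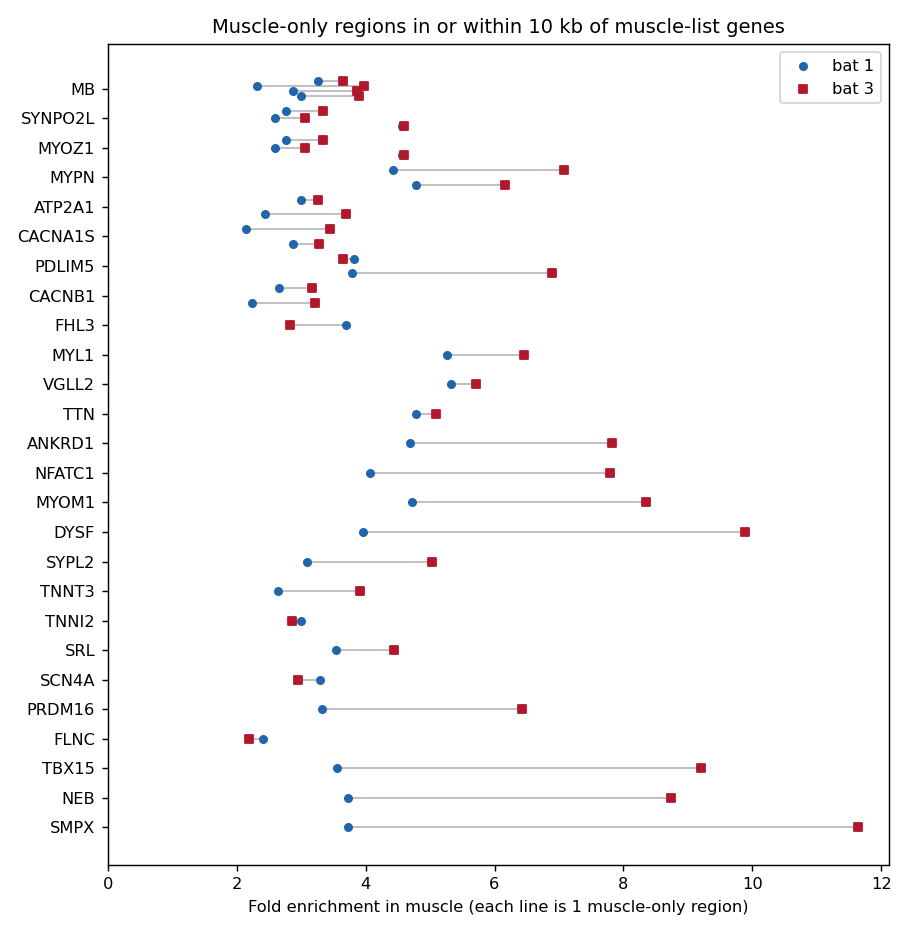
Fold enrichment (horizontal) of each muscle-only region in or within 10 kb of the genes of the 6 muscle lists named for having the most such regions. Each grey line is 1 region and joins its value in bat 1 (blue circle) to that in bat 3 (red square); the 3 lines of MYOZ1 and of SYNPO2L are the same regions, and FHL3, TNNI2, SCN4A, FLNC and 1 region of PDLIM5 are lower in bat 3.

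Muscle-only regions were counted at genes of fast and of slow fibres. Of 15 genes used mainly in fast fibres of mammals, 9 had one (MYH1, MYL1, MYLPF, TNNI2, TNNT3, MYBPC2, ATP2A1, CASQ1 and MYOZ1) and 14 had a region strong in both muscle libraries. Of 11 genes used mainly in slow fibres, 1 had a muscle-only region (MYBPC1) and 9 had a strong one. MYH7 and TNNI1, for the slow myosin heavy chain and slow troponin I, had no region strong in both animals, and neither had PVALB, a calcium buffer of fast fibres in rodents. These 2 lists were made after the values were seen and carry no test. In their first form they had 9 of 13 fast and 0 of 10 slow genes with a region. TPM1 and MYOZ3 (fast) and MYBPC1 (slow) were added once those counts were known, because they had been missed.

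Of the 139 muscle-list genes with no muscle-only region, 134 had a strong muscle region with a peak in some other tissue as well. In 37 of them the region with the fewest others was shared with only 1 tissue, in 70 with 2 to 8, and in 27 with all 9. ACTA1, for skeletal actin, RYR1, for the calcium release channel, and DES, for desmin, were among those shared with only 1 other tissue. CKM, for muscle creatine kinase, had 2 strong regions, and the one with the fewest other tissues had an interval in 4. PAX7, TNNI1, PVALB, MYMK and MYH7 had no region strong in both muscle libraries.

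Lists of other cell types and tissues were short, and their shares varied. Of 10 neuron genes, 2 had a muscle-only region, a larger share than on the lists of myogenic regulators, energy metabolism and the neuromuscular junction. The neuron genes had a median length of 73.0 kb, against 17.2 kb over all genes. The count was 1 of 9 testis genes (11.1%) and 1 of 12 fibroblast genes (8.33%). None was found at the 10 cardiac genes placed (TNNI3, TNNT2, MYBPC3, NPPA, NKX2-5, GATA4, TBX20, MYL7, MYL4 and ACTC1) or the 11 of smooth muscle (ACTA2, MYH11, TAGLN, CNN1, LMOD1, SYNPO2, DES, SMTN, CASQ2, PLN and NOTCH3). None was found at the 12 endothelial genes, the 6 of adipocytes (ADIPOQ, PLIN1, PPARG, CIDEC, CIDEA and UCP1) or the 9 of blood and immune cells (PTPRC, CD68, CSF1R, CD3E, CD79A, LYVE1, MRC1, ITGAM and SPI1). Nor was any at the 6 genes of Schwann cells, such as SOX10 and ERBB3, or the 9 of liver, such as ALB and APOB. With lists this short, a share at the background of 4.62% would also give 0 or 1. DPT, for dermatopontin, an extracellular matrix protein on the fibroblast list, had 3 regions, the list's only ones (none at PDGFRA, COL1A1, COL1A2, COL3A1, DCN, LUM, TCF21, PI16, COL6A3, FBN1 or TNXB), at 3.61-, 2.91- and 2.62-fold in bat 1 and 10.6-, 6.18- and 4.38-fold in bat 3. On the neuron list, SNAP25 had 1 region at 3.57-fold in bat 1 and 7.16-fold in bat 3. On the testis list ODF1 had 1, and TNP1, DDX4, SYCP1, SYCP3, DAZL, ACR, SPATA16 and TSSK2 had none. Of the 26 limb position genes, 3 had a region (11.5%), TBX15 and HOXA4 among them. The HOXA4 region lay across a gene end at 3.46-fold in bat 1 and 5.51-fold in bat 3.

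The genes with the most regions included some on no list. CTNNA3, for a catenin of cell junctions in heart, had 4 regions inside the gene, at 3.29- to 4.76-fold in bat 1 and 5.31- to 15.3-fold in bat 3. SYNE2, for nesprin-2, which ties nuclei to the cytoskeleton, had 3, at 2.70- to 5.29-fold in bat 1 and 5.60- to 9.95-fold in bat 3. SMG6, for an enzyme of RNA decay, also had 3, and so had MAF, a leucine zipper factor, whose regions stood at 3.23- to 3.90-fold in bat 1 and 3.94- to 9.09-fold in bat 3. These are long genes, of 193 to 1367 kb.

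Regions at muscle genes had lower median folds than other muscle-only regions. The 57 regions in or within 10 kb of a muscle-list gene had a median of 3.00-fold in bat 1 and 3.98-fold in bat 3. The 713 at other genes only had medians of 3.33-fold in bat 1 and 6.67-fold in bat 3, and the 293 over 10 kb from any gene 3.56-fold in bat 1 and 7.56-fold in bat 3. Their median -log10 p was 8.67 in bat 1 and 29.8 in bat 3 at muscle-list genes, against 8.57 and 40.8 at other genes only. Over 10 kb from any gene it was 9.09 in bat 1 and 46.5 in bat 3. The 63 muscle-only regions within 1 kb of any gene end also had low medians, 2.92-fold in bat 1 and 4.61-fold in bat 3. By median -log10 p, regions at muscle-list genes were below both other groups in bat 3. In bat 1 they were below only those over 10 kb from any gene. The difference in fold at muscle-list genes was seen in both animals and was larger in bat 3. Neither this difference nor its link with position was tested, because fold comes from the same peaks as the -log10 p that chose the regions.

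The strongest regions were not at genes of the muscle lists. By the weaker -log10 p of the 2 animals, the first lay between KCNJ3 and GALNT13 (NW_023416295.1, bases 60472063 to 60473382), at 8.80-fold in bat 1 and 12.4-fold in bat 3. The second lay between PALMD and PLPPR4 (NW_023416292.1, bases 40590098 to 40591061) at 8.88-fold in bat 1 and 13.5-fold in bat 3. The third lay between SEL1L and FLRT2 (NW_023416306.1, bases 159660422 to 159661323), over 1 Mb from either gene, at 8.64-fold in bat 1 and 15.7-fold in bat 3. The fourth was inside THADA (NW_023416310.1, bases 25711164 to 25711698), at 8.08-fold in bat 1 and 13.4-fold in bat 3. In each of these the summits of the 2 animals were 3 to 11 bases apart.

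Others of the 12 strongest lay between MAP2K6 and KCNJ16, in TTC39B, between SCMH1 and FOXO6, in NDUFAF5, between MRPL3 and NUDT16, in RFC1, and near ZC3H12C. Of these the region near ZC3H12C, at bases 47334410 to 47335020 of NW_023416308.1, had the highest fold of any muscle-only region in bat 3, at 22.1-fold, with 8.07-fold in bat 1. The region in TTC39B had the highest -log10 p in bat 3, at 219, with 38.1 in bat 1. None of the 12 lay inside a gene of the 6 muscle lists. The 3 widest regions were one between ZNF32 and CXCL12 (2012 bases), the one at MYOM1 and one in SEL1L3 (1760 bases).

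Most regions stood alone. Within 50 kb of another muscle-only region lay 191 of the 1064 (17.95%), in 89 groups of at most 4. The corresponding shares were 20.03% of the testis-only, 23.1% of the cerebellum-only and 1.61% of the liver-only regions, which differ in number. By scaffold there were 0.291 to 0.998 regions per Mb.

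Whether regions chosen in 1 animal were open in muscle of the other was measured in libraries the choice had not used. Choosing in bat 1 alone, with a strong muscle peak and no interval in the 9 other tissues of bat 1, gave 5062 regions. In bat 3, 54.8% of them had an interval in muscle, against 4.42% ± 4.92 in the other tissues (SD, n = 9), which ranged from 0.849% in caudate to 15.0% in testis. Choosing in bat 3 gave 6510 regions. In bat 1, 51.5% of them had an interval in muscle, against 4.27% ± 3.15 in the other tissues (SD, n = 9), with 10.2% in testis as the highest. The differences of 50.3 and 47.2 percentage points each had an exact permutation p of 0.1 (2-sided, over which tissue takes the place of muscle), the smallest that 10 tissues allow. Muscle was the highest of 10 tissues in both directions. The choice had asked for a strong muscle peak and no interval in the 9 other tissues, so this rank was favoured in advance. Several of the 9 are areas of 1 brain. The p is therefore no evidence that the regions are particular to muscle, and the shares show only how often a choice in 1 animal was met in the other.

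**Figure D5:**
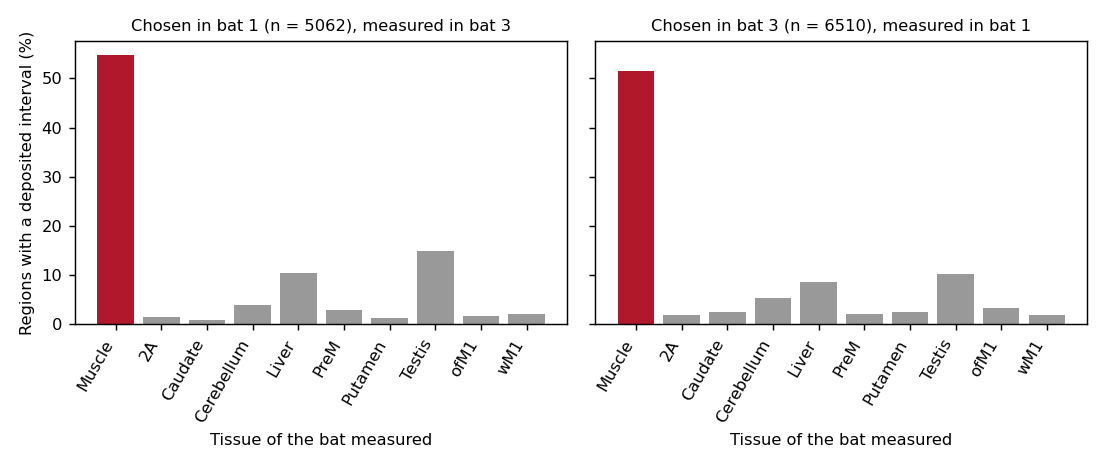
Percentage of regions chosen as muscle-only in 1 animal that had a deposited interval in each tissue of the other animal. Left, 5062 regions chosen in bat 1 and measured in bat 3; right, 6510 chosen in bat 3 and measured in bat 1. The red bars, muscle, stand at 54.8% and 51.5%, and testis is the highest of the others at 15.0% and 10.2%.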

How the data were processed

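The deposited ATAC-seq data are 1 narrowPeak list per library, so the authors called peaks per library. The submitters' processing notes name Bowtie2 and MACS2 but give neither a role; their settings are not given in these sources. The files name no build, and it was taken as mRouAeg1.p from the match of gene ends to peaks. Each deposited row gives a fold enrichment, which is a ratio to the background the caller modelled, a -log10 p, a -log10 q and a summit offset from the interval's start. No read depth goes with the lists, so the depth behind a peak is unknown. The 12 RNA libraries are from brain and were not used. Overlap was at least 1 base pair. Region values are the highest of the overlapping intervals of a library, and summits those of the interval with the highest -log10 p. Coordinates count from 1. Scripts ran in Python 3.11.15 with numpy 2.4.6, pandas 2.3.3 and scipy 1.17.1, and were tested on simulated lists with known answers. Gene windows were the gene and 10 kb on both sides, since the gene table has no strand. The plan had 10 kb before the start, and promoters in place of gene ends. Intervals for shares are exact binomial (95%) and cover counting error only. Regions named were the 12 with the highest weaker -log10 p, the 3 widest and the 3 on each side of the threshold; genes named were the 30 listed genes with the most regions and the 8 genes of any kind with the most. Some of these are not reported here. Other names were chosen after their values were seen. The members and lists were chosen with earlier results of these data known.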

Additional observations from a re-analysis of the deposited data

How the results depend on the processing

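The number of muscle-only regions followed the thresholds. It was 295 with the 25000 strongest intervals, 2215 with 100000, 5248 when only strong intervals elsewhere counted, 562 with 50% reciprocal overlap and 1598 without other lists of over 200000 intervals, both testis lists, an alternative added after the data were seen. With 1 muscle library left out it was 3507 to 4701, the higher without bat 1. It was 941 with ranking by fold and 1414 without the liver lists. Of the 187 muscle-list genes, 48 had a region as reported, against a background of 4.62% of all genes. The count was 15 with 25000 (background 1.24%), 73 with 100000 (background 8.79%) and 119 when only strong intervals elsewhere counted (background 16.2%). It was 26 with ranking by fold (background 3.58%). With 1 muscle library left out it was 72 to 109 (backgrounds 11.8 and 15.6%). The share at gene ends was 4.07% with 25000, 3.40% with ranking by fold, 4.39 to 4.86% with 1 library left out and 13.4% in a window from 5 kb outside to 1 kb inside. With 1 muscle library left out, median width was 0.234 to 0.503 kb, against 0.7015 kb as reported, and median fold was 3.14 to 4.67. The difference between muscle and other tissues in the animal not used was 26.1 to 91.3 percentage points, with a positive sign that the choice of regions favoured in advance. The cause of these changes was not tested. No paired analysis was possible because the region counts come from no test and the permutation uses libraries of 1 bat. The motif comparison was not run, since it needs a genome sequence. Read depth, which limits what a list can hold, is unknown.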
